A study of Rattus norvegicus with 21 samples.

Results

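The 3 libraries named SFSN-Ot, which the submitters assign to osteoblasts, were compared with the 3 named SFSN-TC, assigned to tendon cells. These 6 libraries, of 21 in the series, are defined by their sample labels, and every gene of the expression table entered the comparison. All 21 libraries came from rat bone marrow mesenchymal stem cells of WT genotype, with 3 libraries in each of 7 groups. SFSN-Ot and SFSN-TC both carried the treatment label SFSN, as did the groups for endothelial cells (SFSN-EC), fibroblasts (SFSN-FB), neuron-like cells (SFSN-Neu) and adipocytes (SFSN-Adipo), whereas Control had no treatment entered. The library names of the 6 libraries began with RUNX21 (SFSN-Ot) and SCX1 (SFSN-TC), and the labels do not say what these stand for. They give neither the age of the animals nor whether replicates were grown or taken separately. The p-values therefore measure the spread between replicate libraries, estimated over all 7 groups, which may be technical.

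Mesenchymal stem cells of the marrow are stromal cells that can form bone, cartilage and fat, and osteoblasts and tendon cells descend from related precursors. Osteoblasts lay down type I collagen and mineralise it with the help of alkaline phosphatase and acidic bone proteins, while tendon cells build aligned collagen fibrils whose spacing is set by small proteoglycans such as fibromodulin, lumican and decorin. EGR1 and EGR2, zinc finger factors that respond within minutes to growth factors and mechanical load, also switch on collagen genes in tendon.

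The expression table listed 9998 genes alphabetically, ending at Map2k1. Runx2, Scx, Sp7, Tnmd, Mkx, Pparg and others after that name were not analysed here. The 6 libraries held between 8467904 and 8851924 expected counts in these genes, which carried 40.7% to 41.6% of the summed TPM, a length-scaled share of all transcripts. Levels are given as CPM (these counts scaled to a common library size by edgeR), and each list of CPM values runs from replicate 1 to replicate 3. Replicates ranked genes almost alike (Spearman correlation across genes 0.988 to 0.995), but SFSN-Ot replicate 3 stood somewhat apart: its counts differed from those of the other SFSN-Ot libraries by chi-square values of 9.53 and 14.38 per degree of freedom, against 3.13 to 3.86 for the other pairs. In bulk RNA, fewer cells of a type and less RNA per cell cannot be told apart.

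Of 6659 genes with enough counts to test, 1350 (20.3%) differed between SFSN-Ot and SFSN-TC at an adjusted p under 0.05 in edgeR's quasi-likelihood test. Of these, 685 (10.3% of genes tested) were higher in SFSN-Ot and 665 (9.99%) were higher in SFSN-TC. Most differences were small, with a median size of 0.43 on the log2 scale among the called genes, and 197 genes (2.96%) differed by at least 2-fold, 118 of them higher in SFSN-Ot and 79 higher in SFSN-TC. Genes without overlap between the 3 libraries of each group numbered 2650 (39.8%). The split between directions depended on the scaling: with libraries scaled by their total count, 526 genes were higher in SFSN-Ot and 798 in SFSN-TC, and by limma on log2(TPM + 1) these were 366 and 686. Without SFSN-Ot replicate 3, 994 genes were called.

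**Figure D1:**
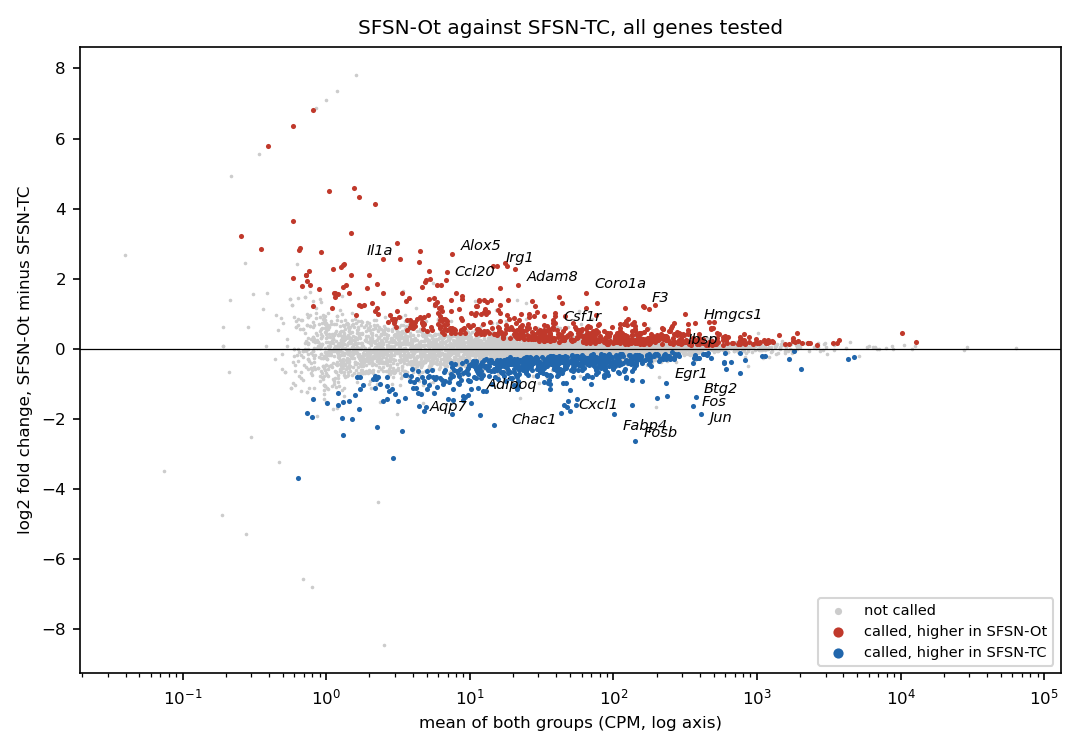
Each point is 1 of the 6659 genes tested, by its mean level in both groups (x axis, CPM, log scale) and its log2 fold change, SFSN-Ot minus SFSN-TC (y axis). Red points (685) were called higher in SFSN-Ot and blue points (665) higher in SFSN-TC. Fosb, Aqp7, Jun and Fabp4 lie lowest among the labelled genes, and Alox5, Il1a, Irg1 and Ccl20 highest.

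Of 17 osteoblast genes listed, 16 were tested, 3 were higher in SFSN-Ot and 2 higher in SFSN-TC (31.2% called, against 20.3% of all genes tested), and their median log2 fold change of 0.01 equalled that of all genes (0.01). Leaving out 1 library gave 2 to 3 higher in SFSN-Ot and 0 to 1 higher in SFSN-TC. Ibsp, which encodes the mineral-binding bone sialoprotein, stood at 292, 276 and 310.4 CPM in SFSN-Ot and at 203, 211 and 205 CPM in SFSN-TC. The groups did not overlap and differed 1.42-fold (log2 fold change 0.50 ± 0.08 SE, adjusted p = 0.000113). In Control, Ibsp stood at 7.68, 8.44 and 8.07 CPM, far below both groups.

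Alpl, the alkaline phosphatase that frees phosphate for mineral, followed the same order, with 368, 352 and 412 CPM in SFSN-Ot, 277, 274 and 289 CPM in SFSN-TC and 96.5, 113 and 109 CPM in Control. Its SFSN-Ot libraries all lay above its SFSN-TC libraries, by a log2 fold change of 0.43 ± 0.10 (adjusted p = 0.00385). Cdh11, the osteoblast cadherin, was 1.12-fold higher in SFSN-Ot (log2 fold change 0.16 ± 0.05, adjusted p = 0.0158), a call that was lost in 4 of the 6 fits that left out 1 library and in limma on log2(TPM + 1). On the other side, Kazald1, a secreted protein linked to bone formation, was 1.27-fold higher in SFSN-TC (adjusted p = 0.048), and Ankh, the pyrophosphate exporter that restrains mineralisation, 1.15-fold (adjusted p = 0.0498). Both calls lay close to the threshold: the Kazald1 call was lost in 5 of the 6 fits that left out 1 library, and the Ankh call in all 6.

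The remaining 11 osteoblast genes tested lay between -0.15 and 0.15. Col1a1, the main chain of bone and tendon collagen, stood at 63198, 63681 and 64986 CPM in SFSN-Ot and at 62986, 64422 and 63544 CPM in SFSN-TC, and the groups overlapped (log2 fold change 0.01 ± 0.05, adjusted p = 0.954). Dmp1, an acidic matrix protein of late osteoblasts and osteocytes, had 13, 13.3 and 12.5 CPM in SFSN-Ot against 12, 10.1 and 13.3 CPM in SFSN-TC (log2 fold change 0.13 ± 0.20, adjusted p = 0.711). Dlx3, Dlx5 and Dlx6, homeobox factors of early osteoblasts, had adjusted p-values of 0.458, 0.558 and 0.997. Bglap, which encodes osteocalcin, had 1 to 4 counts per library in both groups and was not tested.

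Of 21 tendon genes listed, 20 were in the table and 17 were tested, with a median log2 fold change of 0.15. Of the 17, 4 were higher in SFSN-Ot (background 10.3%), 2 were higher in SFSN-TC (background 9.99%) and 11 were not called. With the gene-length trend taken out 7 were higher in SFSN-Ot, and with the replicate number as a block in the 6 libraries 6 were. The 2 that were higher in SFSN-TC were the transcription factors Egr1 and Egr2. The 4 that were higher in SFSN-Ot, the group named for osteoblasts, were small leucine-rich proteoglycans of the fibril surface.

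Egr1 stood at 312, 313 and 302 CPM in SFSN-TC and at 163, 164 and 148 CPM in SFSN-Ot. The 3 SFSN-TC libraries lay 1.95-fold above the others, without overlap (log2 fold change -0.97 ± 0.09, adjusted p = 5.92e-07), and above all 12 libraries of the other SFSN groups, which reached at most 259.8 CPM. Egr2 stood at 76.3, 90.6 and 78.5 CPM in SFSN-TC against 50.9, 48.1 and 47.3 CPM in SFSN-Ot (1.68-fold, log2 fold change -0.75 ± 0.10, adjusted p = 2.03e-05). Its SFSN-Ot values were close to those of Control, at 47.7, 47.9 and 47.4 CPM.

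Fmod, which encodes fibromodulin, had the largest difference of the proteoglycan genes. It stood at 54.7, 54.6 and 56.7 CPM in SFSN-Ot and at 38.1, 36.9 and 35.1 CPM in SFSN-TC, with Control between them at 45.8, 44.5 and 47.4 CPM. SFSN-Ot exceeded SFSN-TC 1.51-fold (log2 fold change 0.59 ± 0.09, adjusted p = 6.02e-05). Aspn (asporin), Dcn (decorin) and Lum (lumican) were higher in SFSN-Ot by log2 fold changes of 0.26 ± 0.05, 0.24 ± 0.06 and 0.15 ± 0.03. The calls of Aspn and Lum were lost in limma on log2(TPM + 1), and that of Dcn without SFSN-Ot replicate 3 (highest adjusted p over the fits that left out 1 library 0.0564). Biglycan (Bgn, log2 fold change -0.01 ± 0.06, adjusted p = 0.952), the fibril collagens Col3a1 (0.04 ± 0.06), Col5a1 (0.01 ± 0.07) and Col12a1 (0.01 ± 0.28) and the cartilage matrix protein Comp (0.07 ± 0.28) were not called. Kera had 0 counts in all 6 libraries, and Gdf5 and Gdf7 had at most 9 counts per library.

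The 2 Egr calls were part of a wider group. Immediate early genes are transcribed within minutes of a stimulus from factors already present in the cell, and many encode transcription factors, among them FOS and JUN, which pair to form AP-1. Of 28 such genes, all tested, 14 were higher in SFSN-TC (background 9.99%), 5 were higher in SFSN-Ot and 9 were not called, with a median log2 fold change of -0.24 against 0.01 for all genes.

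The 14 included 5 members of the FOS and JUN families. Fos stood at 557, 537 and 524 CPM in SFSN-TC, at 179, 178 and 167 CPM in SFSN-Ot and at 74.8, 66.1 and 69.1 CPM in Control. The 3 groups were fully separated, and SFSN-TC exceeded SFSN-Ot 3.09-fold (log2 fold change -1.63 ± 0.05, adjusted p = 6.43e-13). Jun stood at 658, 642 and 625 CPM in SFSN-TC and at 173, 161 and 198 CPM in SFSN-Ot, a 3.62-fold difference (log2 fold change -1.86 ± 0.09, adjusted p = 1.38e-10). Control, at 183, 219 and 216 CPM, overlapped SFSN-Ot, so SFSN-TC stood above the other 2 groups.

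Fosb, a FOS relative, had the largest log2 fold change of the list, with 265, 277 and 191 CPM in SFSN-TC against 46.3, 47.3 and 23.2 CPM in SFSN-Ot. The third library was the lowest of its group in both cases, and the 6.27-fold difference had a wide error (log2 fold change -2.65 ± 0.38, adjusted p = 5.93e-05). The milder AP-1 members Jund and Junb, given after their values were seen, were higher in SFSN-TC by log2 fold changes of -0.42 and -0.38 (adjusted p = 0.00137 and 0.00597). Fosl2 was not called (log2 fold change 0.27 ± 0.18, adjusted p = 0.343).

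Btg2, an antiproliferative factor that p53 also controls, stood at 545, 559 and 518 CPM in SFSN-TC and at 211, 211 and 198 CPM in SFSN-Ot. The libraries did not overlap and differed 2.61-fold (log2 fold change -1.38 ± 0.04, adjusted p = 6.43e-13). Ier2, a nuclear early response protein, was 1.88-fold higher in SFSN-TC (adjusted p = 7.13e-07), and Egr4, at 2.78, 2.59 and 1.67 CPM against 0.708, 1.31 and 1.16 CPM, 2.20-fold (adjusted p = 0.0154). The Egr4 call was lost in 3 of the 6 fits that left out 1 library. The remaining members higher in SFSN-TC were Atf3, Klf6, Dusp1 and Ier3, at log2 fold changes of -0.52, -0.58, -0.40 and -0.26.

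The 5 members that were higher in SFSN-Ot, named after their values were seen, were Fosl1, Dusp5, Klf10, Dusp6 and Klf4. Fosl1, the FOS relative FRA1, stood at 35.6, 41.3 and 44.8 CPM in SFSN-Ot and at 25.4, 24.5 and 25.8 CPM in SFSN-TC (log2 fold change 0.68 ± 0.10, adjusted p = 4.59e-05). Dusp6 and Dusp5, phosphatases that switch off ERK kinases, followed with 0.37 ± 0.06 and 0.49 ± 0.16 (adjusted p = 0.000254 and 0.0355). The Dusp5 call was lost in all 6 fits that left out 1 library. Control exceeded both groups for Fosl1 (70.9, 72.8 and 77.5 CPM) and for Dusp6 (225, 251 and 244 CPM).

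Promoters of 2 of these genes are shown as the 250 bases before the RefSeq start site, build GRCr8, because the immediate early response is known to run through serum response factor at CArG boxes and through CREB at the CRE. Capitals mark 2 CArG boxes in Egr1 (chr18:26736828-26737077, plus strand) and a CRE, TGACGTCA, in Btg2 (chr13:48087691-48087940, minus strand). Both genes were higher in SFSN-TC. Of the 4 called members with an entry in the promoter table and the largest fold changes (Fosb, Btg2, Egr4 and Egr1), they are the 2 that held either motif. Fos and Jun have no entry.
Egr1: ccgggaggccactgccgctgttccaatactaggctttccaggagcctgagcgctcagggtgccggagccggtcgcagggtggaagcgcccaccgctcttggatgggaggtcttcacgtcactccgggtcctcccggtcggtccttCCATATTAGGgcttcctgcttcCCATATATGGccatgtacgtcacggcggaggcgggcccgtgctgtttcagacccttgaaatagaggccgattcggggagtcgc
Btg2: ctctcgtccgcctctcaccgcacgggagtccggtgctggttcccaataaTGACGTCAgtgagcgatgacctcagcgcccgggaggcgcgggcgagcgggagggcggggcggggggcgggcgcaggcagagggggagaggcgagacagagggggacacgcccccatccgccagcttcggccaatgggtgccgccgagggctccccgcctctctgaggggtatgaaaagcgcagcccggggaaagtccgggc
Both strands were searched. A CArG box was found in 4 of 18 immediate early promoters (Egr1, Egr2, Dusp5 and Klf6) and in 1.5% of 27457 promoters of this length. The CRE was found in Jund, Ier2, Dusp1 and Btg2, 4 of 18, against 1.7% of all promoters. Dusp5, with a CArG box, was higher in SFSN-Ot, and Egr1, Egr2 and Klf6 were higher in SFSN-TC. The AP-1 motif TGANTCA was in 0 of the 18 and in 6.36% of all promoters. A match describes these letters and is not evidence of binding.

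The second group higher in SFSN-TC consisted of fat cell genes. Adipocytes take up fatty acids, store them as triglyceride in lipid droplets and release glycerol and fatty acids by lipolysis. Of 21 adipocyte genes 20 were tested, of which 15 were higher in SFSN-TC (background 9.99%), 1 was higher in SFSN-Ot and 4 were not called, and the median log2 fold change was -0.91. Lep (leptin), with 1 to 5 counts per library, was not tested.

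Among the carriers of lipid, Fabp4, the fatty acid binding protein of fat cells, stood at 166, 154 and 153 CPM in SFSN-TC, at 49.4, 33.9 and 46.9 CPM in SFSN-Ot and at 6.8, 10.1 and 8.07 CPM in Control. Its 3 groups were fully separated, with a 3.63-fold difference between SFSN-TC and SFSN-Ot (log2 fold change -1.86 ± 0.20, adjusted p = 2.13e-06). Aqp7, the channel through which fat cells release glycerol, stood at 15.3, 20.9 and 19.1 CPM in SFSN-TC and at 5.78, 4.65 and 4.53 CPM in SFSN-Ot, a 3.69-fold difference (log2 fold change -1.89 ± 0.18, adjusted p = 8.15e-07). Control libraries held at most 0.63 CPM of Aqp7. Cd36, a fatty acid uptake receptor that macrophages also carry, had 67, 73.2 and 74.5 CPM in SFSN-TC against 26.7, 25.1 and 24 CPM in SFSN-Ot (2.83-fold, adjusted p = 1.70e-08).

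Of the enzymes of triglyceride storage and lipolysis, Gpd1, which makes the glycerol phosphate backbone, stood at 80, 81.3 and 87 CPM in SFSN-TC and at 25.6, 24.3 and 31 CPM in SFSN-Ot (3.07-fold, log2 fold change -1.62 ± 0.13, adjusted p = 6.21e-08). Lipe, the hormone-sensitive lipase, was higher in SFSN-TC (log2 fold change -1.32, adjusted p = 1.92e-05). Lpl, the lipoprotein lipase, had 916, 954 and 979 CPM against 594, 586 and 575 CPM (1.62-fold, adjusted p = 5.74e-08). Dgat2 and Acsl1, enzymes of triglyceride synthesis and fatty acid activation, had log2 fold changes of -0.94 ± 0.13 and -0.89 ± 0.07, and Cidec and Cidea, lipid droplet proteins, -1.29 ± 0.28 and -1.20 ± 0.33.

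Secreted products and regulators were included. Angptl4, a secreted inhibitor of lipoprotein lipase, stood at 70.1, 66.1 and 65 CPM in SFSN-TC and at 17.2, 20.6 and 18.3 CPM in SFSN-Ot (3.58-fold, log2 fold change -1.84 ± 0.10, adjusted p = 1.74e-10). Adipoq, the hormone adiponectin, stood at 49.8, 46.3 and 52.9 CPM against 21.6, 21.6 and 23.6 CPM, and at 1.51, 1.26 and 1.64 CPM in Control. SFSN-TC was thus 2.23-fold above SFSN-Ot (adjusted p = 1.38e-06), and both lay far above Control. Its SFSN-TC libraries also lay above all 12 libraries of the other SFSN groups, SFSN-Adipo among them, which reached at most 36.7 CPM. Cebpa, a factor of fat cell differentiation, was 1.53-fold higher in SFSN-TC (adjusted p = 0.000957).

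The 1 adipocyte gene that was higher in SFSN-Ot was Klf15, a zinc finger factor, at 5.07, 4.41 and 4.99 CPM against 3, 3.49 and 2.9 CPM (log2 fold change 0.62 ± 0.19, adjusted p = 0.0281). Its call was lost in 4 of the 6 fits that left out 1 library and in DESeq2. Fabp5, Dgat1, Agpat2 and Adrb3 were not called, at log2 fold changes between -0.26 and 0.33. Of 17 genes of mitochondrial fatty acid oxidation, 0 were called in edgeR and 2 had an unadjusted p under 0.05, both lower in SFSN-Ot, with log2 fold changes of -0.50 to 0.13. Outside the lists, Cyp4b1, a cytochrome P450, stood at 68.2, 70.5 and 66.5 CPM in SFSN-TC and at 21.5, 24.4 and 21.6 CPM in SFSN-Ot (3.04-fold, adjusted p = 2.07e-08).

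**Figure D2:**
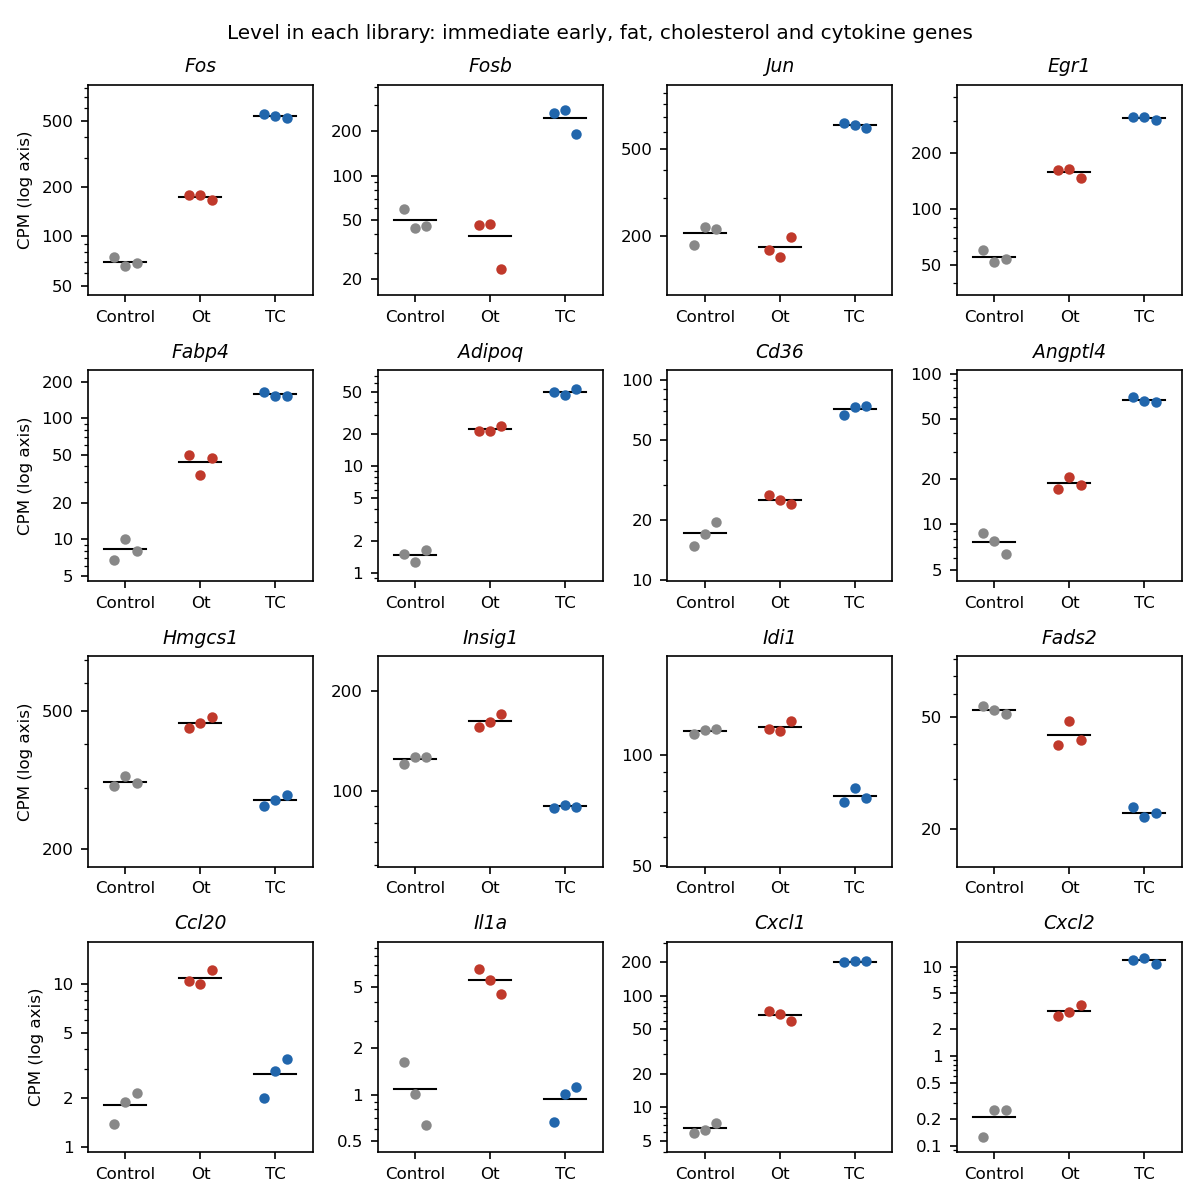
Each panel is 1 gene, each point 1 library, and each bar the mean of 3 libraries in Control (grey), SFSN-Ot (red) and SFSN-TC (blue), in CPM on a log axis whose range differs between panels. Fos, Fosb, Jun, Egr1 and the 4 fat cell genes are highest in SFSN-TC. Hmgcs1 and Insig1 are highest in SFSN-Ot, Idi1 and Fads2 are lowest in SFSN-TC, and Ccl20 and Il1a differ in the opposite direction from Cxcl1 and Cxcl2.

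Genes of cholesterol synthesis and uptake went the other way. When sterol in the endoplasmic reticulum is low, the factor SREBP2 is released and activates the enzymes of the mevalonate and sterol pathway. Of 14 such genes, all tested, 9 were higher in SFSN-Ot (background 10.3%), 0 were higher in SFSN-TC (lowest log2 fold change 0.03; also 0 at an unadjusted p under 0.05 and 0 by DESeq2) and 5 were not called. The median log2 fold change was 0.35.

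Hmgcs1, an early enzyme of the mevalonate pathway, stood at 446, 461 and 480.0 CPM in SFSN-Ot and at 266, 277 and 285 CPM in SFSN-TC, with Control between them at 304, 324 and 309 CPM. The difference was 1.67-fold (log2 fold change 0.74 ± 0.04, adjusted p = 3.47e-10).

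Idi1, an isomerase further along the mevalonate pathway, had 118, 116 and 124 CPM in SFSN-Ot against 74.7, 81.3 and 76.7 CPM in SFSN-TC (1.54-fold, adjusted p = 1.38e-08). In Control it stood at 114, 117 and 118 CPM, so that SFSN-Ot and Control overlapped and SFSN-TC lay below them. Fdft1, squalene synthase, was 1.38-fold higher in SFSN-Ot (adjusted p = 2.20e-05). Insig1, the sterol sensor that retains the SREBP complex, stood at 156, 161 and 170.1 CPM in SFSN-Ot, at 88.7, 91 and 89.7 CPM in SFSN-TC and at 120.3, 127 and 127 CPM in Control (1.81-fold, log2 fold change 0.85 ± 0.06, adjusted p = 1.38e-08).

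Acat2, Fdps and Cyp51 were higher in SFSN-Ot by 0.35, 0.34 and 0.19 on the log2 scale. Dhcr7, Ebp, Hsd17b7 and Lss, later sterol enzymes, were not called. In limma on log2(TPM + 1), 6 of the 14 were called, all higher in SFSN-Ot, and leaving out 1 library gave 7 to 9.

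Promoters of Hmgcs1 (chr2:53382054-53382303, plus strand) and Insig1 (chr4:8057770-8058019, minus strand) are shown for the same 250 bases, as the 2 called members with the largest fold changes and an entry, since NF-Y at CCAAT is a known partner of SREBP in sterol genes. Capitals mark CCAAT boxes, here on the strand opposite to the one printed.
Hmgcs1: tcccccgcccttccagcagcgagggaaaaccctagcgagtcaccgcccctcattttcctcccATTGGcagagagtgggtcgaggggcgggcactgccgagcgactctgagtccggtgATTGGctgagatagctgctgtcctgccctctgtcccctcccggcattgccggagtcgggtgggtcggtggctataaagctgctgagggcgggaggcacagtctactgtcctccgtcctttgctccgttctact
Insig1: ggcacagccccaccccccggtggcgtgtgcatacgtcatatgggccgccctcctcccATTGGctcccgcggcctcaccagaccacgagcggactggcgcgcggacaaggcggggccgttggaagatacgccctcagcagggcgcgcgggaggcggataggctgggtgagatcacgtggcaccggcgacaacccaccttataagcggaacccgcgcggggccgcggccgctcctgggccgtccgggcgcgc
CCAAT was found on either strand in 7 of 10 cholesterol gene promoters, against 34.3% of all promoters. The sterol regulatory element was searched as TCACNCCAC and found in 0 of the 10 and in 0.976% of all promoters. That means only that these letters are not in this window.

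In fatty acid synthesis 13 genes were tested, with a median of 0.12. Of these, 4 were higher in SFSN-Ot (background 10.3%) and 0 in SFSN-TC (lowest log2 fold change -0.06). Fads2, the delta-6 desaturase of polyunsaturated fatty acids, stood at 39.8, 48.4 and 41.2 CPM in SFSN-Ot and at 23.8, 22 and 22.7 CPM in SFSN-TC, and at 54.8, 52.9 and 51.3 CPM in Control. SFSN-TC was the lowest of the 3 groups (log2 fold change 0.92 ± 0.10, adjusted p = 2.97e-06). Fads1, the partner desaturase, was 1.27-fold higher in SFSN-Ot (adjusted p = 0.000478). Acss2, which makes acetyl-CoA from acetate, and Fads3 were called close to the threshold (adjusted p = 0.0464 and 0.0381), and both calls were lost in at least 5 of the 6 fits that left out 1 library.

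Cytokine and chemokine genes differed in both directions. Chemokines of the CXC kind with a glutamate-leucine-arginine motif, such as CXCL1, CXCL2, CXCL3 and CXCL6, attract neutrophils, whereas CCL2, CCL7 and CCL5 attract monocytes and T cells. Of 26 genes listed 21 were tested, with a median log2 fold change of 0.18. Of these, 10 were higher in SFSN-Ot (background 10.3%), 3 were higher in SFSN-TC (background 9.99%) and 8 were not called. In limma these were 7 and 5 on log2(TPM + 1) and 6 and 4 on log2(TPM + 0.1).

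Il1a, the alarm cytokine interleukin-1 alpha, stood at 6.61, 5.6 and 4.53 CPM in SFSN-Ot and at 0.667, 1.01 and 1.12 CPM in SFSN-TC, where it overlapped Control (1.64, 1.01 and 0.63 CPM). SFSN-Ot was 5.91-fold higher (log2 fold change 2.56 ± 0.43, adjusted p = 0.000334). Ccl20, which attracts cells bearing CCR6, stood at 10.4, 10 and 12.1 CPM in SFSN-Ot and at 2, 2.92 and 3.46 CPM in SFSN-TC (3.86-fold, log2 fold change 1.95 ± 0.19, adjusted p = 9.12e-07). Its Control libraries held 1.39, 1.89 and 2.14 CPM, and its fold change against Control in SFSN-TC was not called (adjusted p = 0.0528).

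The monocyte chemokines, given after their values were seen, were also higher in SFSN-Ot. Ccl2 stood at 431, 406 and 411 CPM in SFSN-Ot and at 217, 216 and 197 CPM in SFSN-TC (1.98-fold, log2 fold change 0.98 ± 0.05, adjusted p = 1.10e-10). Ccl7 stood at 84.5, 84.2 and 96.4 CPM against 38.7, 38.2 and 42.3 CPM (2.22-fold, adjusted p = 1.92e-05). For Ccl7 it was SFSN-TC that departed from Control, which stood at 78.3, 87.4 and 95.5 CPM. Ccl5 (log2 fold change 1.31 ± 0.40, adjusted p = 0.0256) was called in 2 of the 6 fits that left out 1 library, and Cxcl13, a B cell chemokine, was higher in SFSN-Ot by 0.81 ± 0.16 (adjusted p = 0.00115).

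The neutrophil chemokines were divided. Cxcl1 stood at 202, 204 and 204 CPM in SFSN-TC, at 73.5, 68.2 and 59.8 CPM in SFSN-Ot and at 5.92, 6.3 and 7.31 CPM in Control (3.03-fold between SFSN-TC and SFSN-Ot, log2 fold change -1.60 ± 0.10, adjusted p = 4.01e-09). Cxcl2 stood at 11.9, 12.6 and 10.7 CPM in SFSN-TC and at 2.83, 3.1 and 3.71 CPM in SFSN-Ot (3.64-fold, log2 fold change -1.86 ± 0.14, adjusted p = 2.79e-08). Both genes were thus lower in SFSN-Ot than in SFSN-TC, yet above Control in both groups.

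Cxcl3 and Cxcl6 showed the opposite order at low levels. Cxcl3 had 5.55, 7.86 and 9.17 CPM in SFSN-Ot and 3.78, 1.35 and 3.24 CPM in SFSN-TC (log2 fold change 1.43 ± 0.31, adjusted p = 0.00321). Cxcl6 had 2.36, 1.79 and 2.32 CPM against 0.556, 0.45 and 0.781 CPM (1.83 ± 0.33, adjusted p = 0.000585). Il1rn, the antagonist of the interleukin-1 receptor, was 1.33-fold higher in SFSN-TC (adjusted p = 0.00109). Il6, Il1b and Lif were not called, at log2 fold changes of 0.06 ± 0.11, -0.15 ± 0.15 and 0.07 ± 0.20.

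Promoters of 4 chemokines, chosen after their values were seen, are shown because they hold a κB site, the motif of NF-κB, although Ccl20 and Cxcl6 were higher in SFSN-Ot and Cxcl1 and Cxcl2 in SFSN-TC. Capitals mark the κB match or 2 overlapping matches on opposite strands. The windows are chr9:91836909-91837158 (plus strand) for Ccl20 and, on the minus strand, chr14:17596418-17596667 for Cxcl6, chr14:17479322-17479571 for Cxcl1 and chr14:17467256-17467505 for Cxcl2.
Ccl20: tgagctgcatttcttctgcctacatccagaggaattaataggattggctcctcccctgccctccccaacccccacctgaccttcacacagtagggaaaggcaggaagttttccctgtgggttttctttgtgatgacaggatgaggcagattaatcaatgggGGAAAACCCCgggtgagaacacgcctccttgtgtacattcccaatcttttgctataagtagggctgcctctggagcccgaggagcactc
Cxcl6: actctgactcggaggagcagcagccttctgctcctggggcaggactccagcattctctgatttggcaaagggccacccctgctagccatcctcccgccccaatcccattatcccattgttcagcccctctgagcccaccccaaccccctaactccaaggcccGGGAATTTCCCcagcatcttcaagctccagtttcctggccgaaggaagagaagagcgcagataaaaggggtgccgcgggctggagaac
Cxcl1: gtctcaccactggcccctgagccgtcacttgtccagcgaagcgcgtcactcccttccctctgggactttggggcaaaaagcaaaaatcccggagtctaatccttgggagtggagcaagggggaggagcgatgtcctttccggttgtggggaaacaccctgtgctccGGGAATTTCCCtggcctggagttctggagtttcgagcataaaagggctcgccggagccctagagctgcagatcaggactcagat
Cxcl2: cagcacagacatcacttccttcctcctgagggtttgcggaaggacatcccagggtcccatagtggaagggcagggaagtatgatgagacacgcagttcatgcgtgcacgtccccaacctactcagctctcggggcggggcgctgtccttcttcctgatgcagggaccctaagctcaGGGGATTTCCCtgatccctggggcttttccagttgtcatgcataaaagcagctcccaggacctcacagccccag
The κB motif was found in 7 of 19 cytokine promoters, against 3.52% of all promoters. Besides these 4 they were Cxcl10, Cxcl11 and Il6, of which Cxcl10 and Il6 were not called and Cxcl11 was not tested. The printed matches lie between bases -89 and -64 relative to the start site. Genes with the motif were thus called in both directions, and the part of the motif in these differences was not tested.

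Among the genes with the largest fold changes, Bcl3, a nuclear partner of NF-κB subunits, stood at 14.6, 13 and 11.5 CPM in SFSN-Ot and at 5.11, 4.95 and 3.8 CPM in SFSN-TC (2.82-fold, adjusted p = 1.53e-06). Birc3, an NF-κB target that blocks cell death, stood at 20.1, 21 and 20.2 CPM against 8, 7.09 and 8.15 CPM (2.63-fold, adjusted p = 1.48e-07). Its SFSN-TC values overlapped Control (7.56, 7.69 and 8.45 CPM).

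Of 24 interferon response genes 22 were tested, and 7 were higher in SFSN-Ot (background 10.3%). In SFSN-TC 0 were higher (1 at an unadjusted p under 0.05, 0 by DESeq2). The other 15 were not called, with log2 fold changes of -0.24 to 0.88. The median of the list was 0.41. With total-count scaling, in limma on log2(TPM + 1) or log2(TPM + 0.1), and without SFSN-EC replicate 1 and SFSN-Neu replicate 2, 1 was called higher in SFSN-TC. Ifit2, an antiviral protein that binds RNA, stood at 101, 98.6 and 99.9 CPM in SFSN-Ot and at 53.3, 50.1 and 52 CPM in SFSN-TC, with Control between them at 74.9, 75.2 and 73.1 CPM (1.93-fold, log2 fold change 0.95 ± 0.05, adjusted p = 2.08e-10). Gbp5 and Gbp2, interferon-induced GTPases, had log2 fold changes of 1.00 ± 0.13 and 0.52 ± 0.11, and Dhx58, a regulator of viral RNA sensing, 0.90 ± 0.15. Gbp4 (1.48 ± 0.47), whose groups overlapped, kept its call in 1 of the 6 fits that left out 1 library. The factors Irf1, Irf7 and Irf9 and the marker Isg15 were not called.

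ATF4 is a factor whose translation rises when amino acids run short or the endoplasmic reticulum is stressed, and it activates amino acid synthesis and tRNA charging as well as death-linked genes such as Ddit3 and Chac1. Of 17 genes tested 10 were higher in SFSN-Ot (background 10.3%), 4 were higher in SFSN-TC (background 9.99%) and 3 were not called (median 0.28). The 10 were Asns, Cth, Gpt2, Atf5 and 6 tRNA synthetase genes, whereas the 4 were Chac1, Ddit4, Atf3 and Ddit3. The split was described after the values were seen.

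Among the synthetases, Cars, for cysteine, stood at 170.1, 168 and 167 CPM in SFSN-Ot, at 103, 103 and 102 CPM in SFSN-TC and at 134, 136 and 135 CPM in Control. The 3 groups were fully separated (1.64-fold between SFSN-Ot and SFSN-TC, log2 fold change 0.71 ± 0.03, adjusted p = 1.10e-10). Aars, for alanine, stood at 554, 558 and 593 CPM in SFSN-Ot and at 376, 383 and 394 CPM in SFSN-TC (1.48-fold, adjusted p = 1.21e-08). Iars, Lars, Gars and Eprs followed with log2 fold changes of 0.55, 0.39, 0.34 and 0.28. Cth, the enzyme that makes cysteine from cystathionine, was 1.96-fold higher in SFSN-Ot (adjusted p = 3.91e-06), and Asns, asparagine synthetase, 1.45-fold (adjusted p = 2.82e-06).

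Chac1, which degrades glutathione, stood at 83.9, 70.8 and 76.5 CPM in SFSN-TC and at 22.9, 19.8 and 24 CPM in SFSN-Ot (3.46-fold, log2 fold change -1.79 ± 0.11, adjusted p = 2.93e-09). Control stood at 63, 67.3 and 75.6 CPM, so for Chac1 SFSN-Ot was the group that departed from it. Ddit4, an inhibitor of mTORC1, had 65.2, 62.2 and 59.6 CPM in SFSN-TC against 36.5, 30.5 and 27.3 CPM in SFSN-Ot (1.98-fold, adjusted p = 5.72e-06). Atf3 and Ddit3 were higher in SFSN-TC by 1.43-fold and 1.33-fold, and the Ddit3 call was lost without SFSN-Ot replicate 3 and without SFSN-TC replicate 2. Atf4 itself was not called (log2 fold change 0.14 ± 0.11, adjusted p = 0.462).

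Among chaperones of the endoplasmic reticulum 3 of 11 were higher in SFSN-Ot (background 10.3%) and 0 higher in SFSN-TC (lowest -0.06). Herpud1 led the 3 (log2 fold change 0.33 ± 0.05, adjusted p = 0.000281). The calls of Hsp90b1 and Hyou1 were lost in limma on log2(TPM + 1). Of 17 heat shock genes 5 were higher in SFSN-Ot (background 10.3%) and 1 was higher in SFSN-TC (background 9.99%). The largest of the 5 was Cryab, a small heat shock protein of muscle and lens (0.71 ± 0.15), and the 1 was the HSP90 cochaperone Chordc1 (-0.64 ± 0.05). The others of the 5 were Hspd1, Hsp90aa1, Hsp90ab1 and Fkbp4, whose calls were all lost with total-count scaling. Hmox1, the haem-degrading enzyme of the oxidative stress response, stood at 320.5, 305 and 361 CPM in SFSN-Ot and at 199.9, 200.4 and 198 CPM in SFSN-TC (1.65-fold, adjusted p = 2.57e-05).

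**Figure D3:**
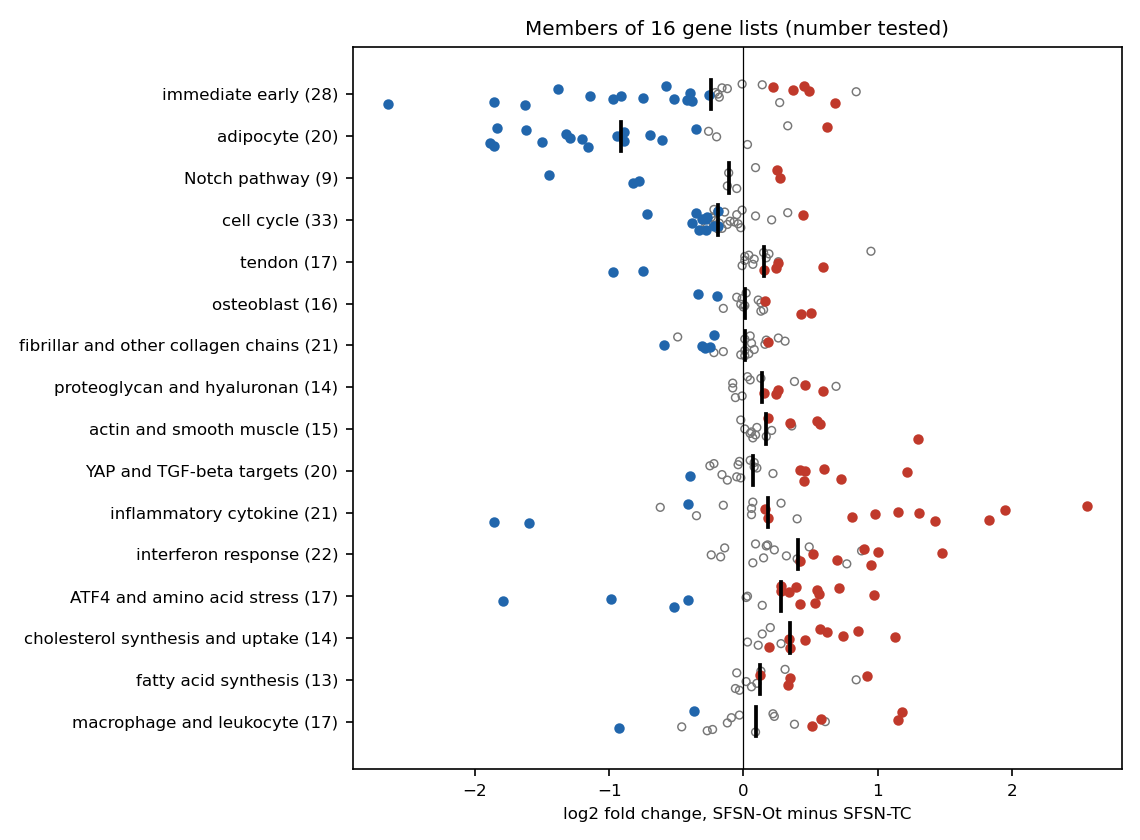
Each point is 1 tested gene of 1 of 16 lists, placed by its log2 fold change, SFSN-Ot minus SFSN-TC (x axis). Filled red points were called higher in SFSN-Ot, filled blue points higher in SFSN-TC, open points were not called, and the black bar is the median of the list. The adipocyte median lies at -0.91, the cholesterol median at 0.35 and the osteoblast median at 0.01.

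Alox5, the lipoxygenase that begins leukotriene synthesis, stood at 13, 13.1 and 13.1 CPM in SFSN-Ot and at 2.11, 1.57 and 2.34 CPM in SFSN-TC. Control lay between them at 4.28, 5.42 and 4.29 CPM, and the 3 groups were fully separated (6.46-fold between SFSN-Ot and SFSN-TC, log2 fold change 2.69 ± 0.22, adjusted p = 1.01e-07). Irg1, called Acod1 in RefSeq, makes itaconate in activated macrophages and stood at 25.4, 24.9 and 28.1 CPM in SFSN-Ot against 5.11, 4.5 and 5.58 CPM in SFSN-TC (5.14-fold, adjusted p = 1.38e-10). Its SFSN-TC libraries overlapped Control (4.03, 6.17 and 4.79 CPM).

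Coro1a, an actin-binding coronin, stood at 95.5, 83.6 and 112 CPM in SFSN-Ot, at 32.1, 32.2 and 31.4 CPM in SFSN-TC and at 47.4, 51.8 and 52.6 CPM in Control (3.04-fold between SFSN-Ot and SFSN-TC, adjusted p = 2.31e-08). Fmnl1, a formin that elongates actin, stood at 60.2, 59 and 65.3 CPM in SFSN-Ot and at 21.4, 21.6 and 23.3 CPM in SFSN-TC (2.78-fold, adjusted p = 5.52e-10). For both genes Control lay between the groups. Dock2 and, given after its value was seen, Elmo1, partners in activating RAC, were 2.63-fold and 2.37-fold higher in SFSN-Ot (adjusted p = 1.38e-08 and 8.36e-09).

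Adam8, a metalloprotease of leukocytes, stood at 33.9, 34.3 and 33.1 CPM in SFSN-Ot and at 8.22, 9.79 and 10.7 CPM in SFSN-TC (3.52-fold, log2 fold change 1.82 ± 0.08, adjusted p = 4.39e-11). Cfp, the complement activator properdin, stood at 15.6, 15.8 and 18.7 CPM against 6.67, 6.75 and 5.8 CPM (2.60-fold, adjusted p = 1.72e-07). Cadm1, an adhesion molecule found on many cell types, stood at 24.4, 24.5 and 25.8 CPM against 7.11, 8.21 and 7.37 CPM (3.29-fold, adjusted p = 2.61e-09). That the libraries of the 2 groups do not overlap was a condition for naming these 3 genes and is not a separate result. The same holds for the other genes among the 12 highest and 12 lowest, such as Alox5, Coro1a, Fos, Jun, Fabp4 and Cxcl1.

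Markers of macrophages and other leukocytes, as a list, did not move together. Of 20, 17 were tested, 4 were higher in SFSN-Ot (background 10.3%), 2 were higher in SFSN-TC (background 9.99%) and 11 were not called (median 0.09). Csf1r, the receptor for CSF1 on macrophages, stood at 164, 174 and 164 CPM in SFSN-Ot and at 72.2, 76.8 and 76.9 CPM in SFSN-TC (2.22-fold, log2 fold change 1.15 ± 0.05, adjusted p = 3.20e-11), with Control at 87.9, 94 and 91.9 CPM. Lcp1, the leukocyte plastin, stood at 229, 232 and 222 CPM against 94, 99.6 and 108 CPM (2.26-fold, adjusted p = 7.64e-11). Ctss, a lysosomal protease, and Cd14, the lipopolysaccharide coreceptor, were 1.49-fold and 1.42-fold higher in SFSN-Ot (adjusted p = 0.00464 and 0.00116).

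Against these, Lyz2, the lysozyme of macrophages, stood at 733, 756 and 733 CPM in SFSN-TC and at 565, 532 and 621 CPM in SFSN-Ot (1.29-fold, adjusted p = 0.00431). C1qb, a chain of complement C1q, was 1.91-fold higher in SFSN-TC at 3.89, 5.74 and 5.47 CPM against 2.6, 2.5 and 2.79 CPM (adjusted p = 0.00808). Adgre1 (F4/80), Cd68, Itgb2, Itgam, Aif1 and Fcer1g were not called, at log2 fold changes of 0.09, -0.12, -0.03, 0.23, -0.27 and -0.09. The summed TPM of the list was 854 to 887 in SFSN-Ot, 989 to 1050 in SFSN-TC and 782 to 797 in Control. Lyz2 alone held 498 to 526 TPM in SFSN-Ot, 688 to 730 in SFSN-TC and 521 to 531 in Control. The sums therefore largely follow Lyz2 and do not describe the list as a whole. Cd163 and Cd79a had at most 2 counts per library. The part of leukocytes in the differences named above was not tested.

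**Figure D4:**
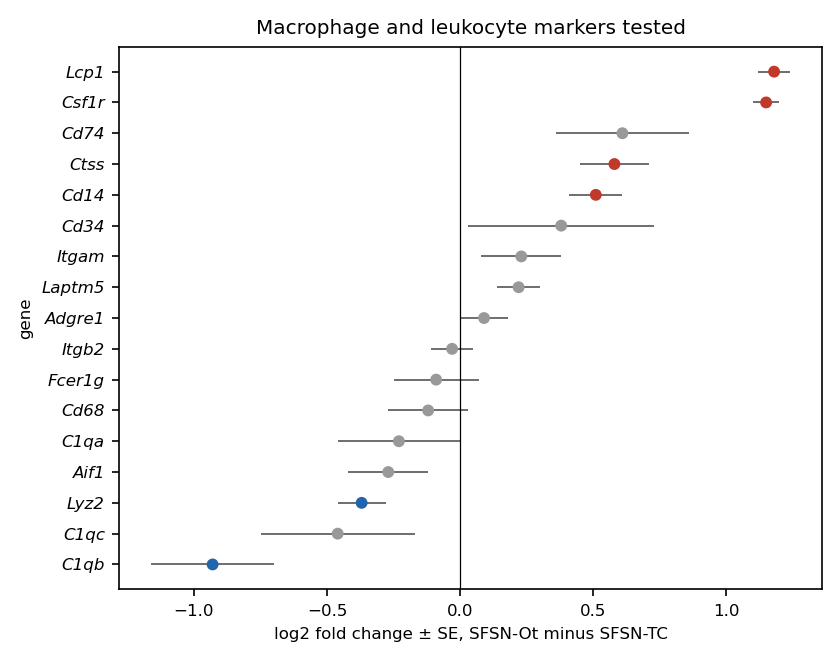
Log2 fold change, SFSN-Ot minus SFSN-TC, with its SE (bars) for the 17 macrophage and leukocyte markers tested, in order of value. Red points (4) were called higher in SFSN-Ot, blue points (2) higher in SFSN-TC, and grey points (11) were not called.

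Of the other marker lists, mesenchymal stem cell markers had 3 of 10 higher in SFSN-Ot (background 10.3%). They were Alcam (log2 fold change 0.50 ± 0.08), Cd44 (0.24 ± 0.03) and the niche chemokine Cxcl12 (0.18 ± 0.03), whose adjusted p-values were 0.000334, 3.69e-05 and 0.00113. All 3 calls were lost in limma on log2(TPM + 1) and on log2(TPM + 0.1). Smooth muscle markers had 2 of 5 higher in SFSN-Ot (background 10.3%), Des (log2 fold change 0.57 ± 0.18) and Lmod1 (0.18 ± 0.05). Both calls were lost in limma on log2(TPM + 1). Among 5 osteoclast, 5 endothelial, 7 chondrocyte, 6 neuron, 1 glial and 1 epithelial marker tested, 0 were called in edgeR. Of these, 1 neuron marker had an unadjusted p under 0.05. Of 9 erythroid genes 0 had enough counts to test, and 5 had 0 counts in all 6 libraries. Of the markers that the submitters listed beside their table, 20 were tested. Ibsp, Alpl and Dlk1, a preadipocyte factor at 4.6, 5.36 and 5.69 against 2.89, 4.05 and 2.34 CPM, were higher in SFSN-Ot, and Fabp4, Cd36 and Adipoq were higher in SFSN-TC. The Dlk1 call (adjusted p = 0.0434) was kept in 1 of the 6 fits that left out 1 library.

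Developmental signalling genes were called in both directions. In the Notch pathway 9 genes were tested, 3 were higher in SFSN-TC (background 9.99%) and 2 higher in SFSN-Ot (background 10.3%). The 3 were Heyl, Hes1 and Hey1, repressors that Notch activates. Heyl stood at 80.7, 81.1 and 84.5 CPM in SFSN-TC and at 32.8, 26.1 and 31 CPM in SFSN-Ot, where it overlapped Control (34.1, 29 and 28.6 CPM). The difference was 2.74-fold (log2 fold change -1.45 ± 0.09, adjusted p = 3.55e-09). Hes1, at 162, 154 and 149 CPM against 90.1, 79.6 and 93.7 CPM, was 1.77-fold higher in SFSN-TC (adjusted p = 5.81e-07), and Hey1 1.72-fold (adjusted p = 0.000301). Hey2, a repressor of the same family, and Dtx3 were higher in SFSN-Ot by 0.27 ± 0.09 and 0.25 ± 0.06. The Hey2 call (adjusted p = 0.048) was kept in 1 of the 6 fits that left out 1 library, and the Dtx3 call was lost without SFSN-TC replicate 3.

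BMPs are bone-inducing ligands that signal through SMAD proteins, and their response genes include the ID factors. Of 14 ligand and receptor genes tested 2 were called (14.3%, against 20.3% of all genes tested), both higher in SFSN-TC, the receptor Acvrl1 (log2 fold change -0.40 ± 0.05, adjusted p = 3.39e-05) and the protease Bmp1 (-0.13 ± 0.04, adjusted p = 0.0239). The Bmp1 call was lost in 3 of the 6 fits that left out 1 library (highest adjusted p 0.0821) and with the replicate number as a block in the 6 libraries. Bmp2 and Bmp4 were not called (-0.11 ± 0.11 and 0.06 ± 0.18). Among the antagonists, Bambi, a decoy receptor, and Chrdl1 were higher in SFSN-TC by log2 fold changes of -0.69 ± 0.12 and -1.20 ± 0.32, and Grem1, a secreted inhibitor, was higher in SFSN-Ot by 0.26 ± 0.04. The Chrdl1 call was lost without SFSN-Ot replicate 3.

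Among 8 BMP targets, Atoh8, a helix-loop-helix factor, stood at 72.6, 74.1 and 70.7 CPM in SFSN-TC and at 21.4, 23.8 and 23 CPM in SFSN-Ot (3.19-fold, log2 fold change -1.67 ± 0.08, adjusted p = 1.36e-10). Control, at 60.8, 65.3 and 60 CPM, lay between them and closer to SFSN-TC. Gata2 was higher in SFSN-Ot (0.50 ± 0.13, adjusted p = 0.011), a call that was lost without SFSN-Ot replicate 1 and without SFSN-TC replicate 3. Id1, Id2, Id3 and Id4 were not called, at 0.00, 0.01, -0.27 and 0.23. Of 13 Wnt receptors tested, 1 was higher in SFSN-Ot and 1 in SFSN-TC (15.4% called, against 20.3% of all genes tested). Of 5 Wnt antagonists 1 was called, higher in SFSN-Ot, and of 4 Wnt targets 1 was called in each direction. Fzd8, a receptor, and Lef1, a target and cofactor of beta-catenin, were higher in SFSN-TC by log2 fold changes of -0.50 ± 0.07 and -0.56 ± 0.09. The receptor Fzd1 and the antagonist Dkk3 were higher in SFSN-Ot by 0.16 ± 0.05 and 0.18 ± 0.04. Both of these calls were lost in limma on log2(TPM + 1). Ccnd1, the cyclin D1 target, was higher in SFSN-Ot (0.30 ± 0.04, adjusted p = 1.38e-05).

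YAP and TGF-beta are pathways through which cells respond to stiff surroundings and tension. Of 20 targets, 6 were higher in SFSN-Ot (background 10.3%), 1 was higher in SFSN-TC (background 9.99%) and 13 were not called. The median was 0.07, turning to -0.04 in limma on log2(TPM + 1). With total-count scaling and in limma on log2(TPM + 1), 3 were higher in SFSN-TC. F3, tissue factor, stood at 214, 227 and 234 CPM in SFSN-Ot and at 96.3, 97.5 and 95.3 CPM in SFSN-TC (2.34-fold, log2 fold change 1.22 ± 0.05, adjusted p = 3.35e-11). Control, at 259.7, 279 and 274 CPM, lay above both. Ctgf, the matrix protein CCN2, stood at 11431, 11435 and 12798 CPM in SFSN-Ot and at 8575, 8506 and 9004 CPM in SFSN-TC (1.37-fold, adjusted p = 3.74e-06), and Lats2, the Hippo kinase, was 1.38-fold higher in SFSN-Ot (adjusted p = 2.79e-08).

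Among 15 actin and smooth muscle genes 5 were higher in SFSN-Ot (background 10.3%) and 0 in SFSN-TC (lowest log2 fold change -0.02). Acta1, skeletal muscle actin, stood at 99.2, 100.3 and 127 CPM in SFSN-Ot and at 45.4, 40.3 and 46.8 CPM in SFSN-TC (2.46-fold, adjusted p = 8.51e-06), with Control above both at 132, 163 and 155 CPM. Fhl2 and Fhl1, LIM proteins of adhesion sites, were higher in SFSN-Ot by 0.55 ± 0.07 and 0.35 ± 0.05. Des and Lmod1, the smooth muscle markers given above, were also among the 5, and both lost their calls in limma on log2(TPM + 1). Acta2, the smooth muscle actin, was not called (0.07 ± 0.09, adjusted p = 0.639).

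In the matrix, 5 of 21 collagen chains were higher in SFSN-TC (background 9.99%) and 1 in SFSN-Ot (background 10.3%), Col8a2 (log2 fold change 0.18 ± 0.04). The 5 included the 3 chains of beaded-filament collagen VI: Col6a3 stood at 2401, 2474 and 2449 CPM in SFSN-TC and at 1639.9, 1753 and 1476 CPM in SFSN-Ot (1.50-fold, adjusted p = 0.00131), and Col6a2 and Col6a1 were 1.24-fold and 1.19-fold higher in SFSN-TC. With the gene-length trend taken out, the calls of Col6a1 and of Col18a1, another of the 5, were lost. Eln, the elastin gene, stood at 604, 594 and 617 CPM in SFSN-Ot against 443, 442 and 452 CPM in SFSN-TC (1.36-fold, adjusted p = 1.92e-06). Has2, the hyaluronan synthase, was 1.37-fold higher in SFSN-Ot (adjusted p = 0.000931), as was, by 1.68-fold, Adamts1, a protease of proteoglycans (adjusted p = 1.04e-06).

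Among growth factor genes, 6 of 18 IGF and FGF genes were higher in SFSN-Ot (background 10.3%) and 2 in SFSN-TC (background 9.99%). Igf1 stood at 87.5, 87.9 and 88.5 CPM in SFSN-TC and at 60.4, 64.3 and 59.8 CPM in SFSN-Ot (1.43-fold, adjusted p = 2.53e-06), whereas Igf2 stood at 17.8, 17 and 16.7 CPM in SFSN-Ot and at 13, 9.9 and 11.2 CPM in SFSN-TC (1.51-fold, adjusted p = 0.000879). The libraries did not overlap for either gene. Fgf7, keratinocyte growth factor, was 1.50-fold higher in SFSN-Ot (adjusted p = 1.56e-06) and Igfbp2 1.98-fold (adjusted p = 0.000364).

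Of 33 cell cycle genes 11 were higher in SFSN-TC (background 9.99%), 1 was higher in SFSN-Ot (background 10.3%) and 21 were not called. The median of the list was -0.19. Espl1, the separase that parts sister chromatids, stood at 41.3, 41.2 and 43.2 CPM in SFSN-TC and at 24.8, 26 and 25.8 CPM in SFSN-Ot (1.64-fold, adjusted p = 0.000201). Aurkb and Cenpe, proteins of mitotic chromosomes, were 1.26-fold and 1.24-fold higher in SFSN-TC (adjusted p = 0.00392 and 0.00422). Cdk1 and Birc5 were not called (log2 fold changes -0.07 ± 0.11 and -0.16 ± 0.20). Without SFSN-Ot replicate 2 or without SFSN-TC replicate 2, 7 members were higher in SFSN-TC.

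Glycolysis and hypoxia genes had 5 of 17 higher in SFSN-Ot (background 10.3%) and 1 higher in SFSN-TC (background 9.99%). The 5 included Hk2 (log2 fold change 0.46 ± 0.12), and the 1 was Ankrd37 (-1.06 ± 0.24). The others of the 5, Hk1, Adm, Aldoc and Car9, all lost their calls without SFSN-Ot replicate 3. Gdf15, a stress hormone of the p53 list, was higher in SFSN-TC (-1.49 ± 0.34, adjusted p = 0.00401), and the cyclin kinase inhibitor Cdkn2b was higher in SFSN-Ot (0.51 ± 0.05, adjusted p = 1.35e-06). Of 21 lysosomal genes 3 were called (14.3%, against 20.3% of all genes tested), and each of the 3 lost its call in at least 3 of the 20 alternatives. Of 12 mitochondrial respiration genes 0 were called in edgeR (also 0 at an unadjusted p under 0.05), whose log2 fold changes lay between 0.00 and 0.30. Gsta5, a glutathione transferase with close paralogs whose reads could be split between them, stood at 11.3, 12.7 and 14.4 CPM in SFSN-Ot and at 6, 3.6 and 4.8 CPM in SFSN-TC (adjusted p = 0.000525). The Hk2 call was lost without SFSN-TC replicate 1. Genes named above that were not called in limma on log2(TPM + 1) also included Klf4, Fads1, Grem1, Dtx3, Col8a2, Has2 and Hk2. Ankh, Dusp5, Acss2, Fads3 and Hey2 were likewise not called there.

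Set beside Control, the differences between SFSN-Ot and SFSN-TC were of several kinds. Among the 685 genes higher in SFSN-Ot the mean of Control lay between the 2 groups for 298, below both for 185 and above both for 202, and among the 665 higher in SFSN-TC these numbers were 295, 180 and 190. Against Control, Fos had log2 fold changes of 1.32 in SFSN-Ot and 2.95 in SFSN-TC, Adipoq 3.91 and 5.07, and Ibsp 5.18 and 4.68, so these genes were raised in both groups to different degrees. Jun was called in SFSN-TC (1.64) and not in SFSN-Ot (-0.22, adjusted p = 0.0725). Both sets of values rest on the same 3 Control libraries.

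In 77 genes the 2 groups were called in opposite directions against Control, 54 of them higher in SFSN-Ot. Alox5 had log2 fold changes against Control of 1.48 in SFSN-Ot and -1.21 in SFSN-TC, and Coro1a of 0.94 and -0.67. Insig1 (0.38 and -0.47) and Cars (0.32 and -0.39) were among them, as were Lcp1 (0.66 and -0.52) and Ifit2 (0.43 and -0.52). Atoh8 had -1.45 and 0.22.

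Across all 7 groups SFSN-TC had the highest mean, and SFSN-Ot neither the highest nor the lowest, for Fos, Btg2, Ier2, Egr1, Aqp7, Gpd1, Lipe, Adipoq and Fabp4. The 12 libraries of the other SFSN groups reached at most 433 CPM for Fos, 394 for Btg2 and 71.6 for Gpd1, below the lowest SFSN-TC libraries at 524, 518 and 80 CPM. For Fabp4 they reached 187 CPM, above all SFSN-TC libraries. Angptl4 had higher means in SFSN-EC and SFSN-Adipo (78.8 and 67.7 CPM) than in SFSN-TC (67.1 CPM), and so did Cd36 (72.4 and 72.6 against 71.6 CPM). For Alox5, Irg1, Coro1a, Dock2 and Adam8 SFSN-TC had the lowest or second lowest mean of the 7 groups, and SFSN-Ot was not the highest. The 12 other libraries spanned 4.48 to 24.3 CPM for Alox5 and 56.1 to 171 CPM for Coro1a, a range that held the SFSN-Ot values of both genes. Differences between neighbouring group means were not tested.

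**Figure D5:**
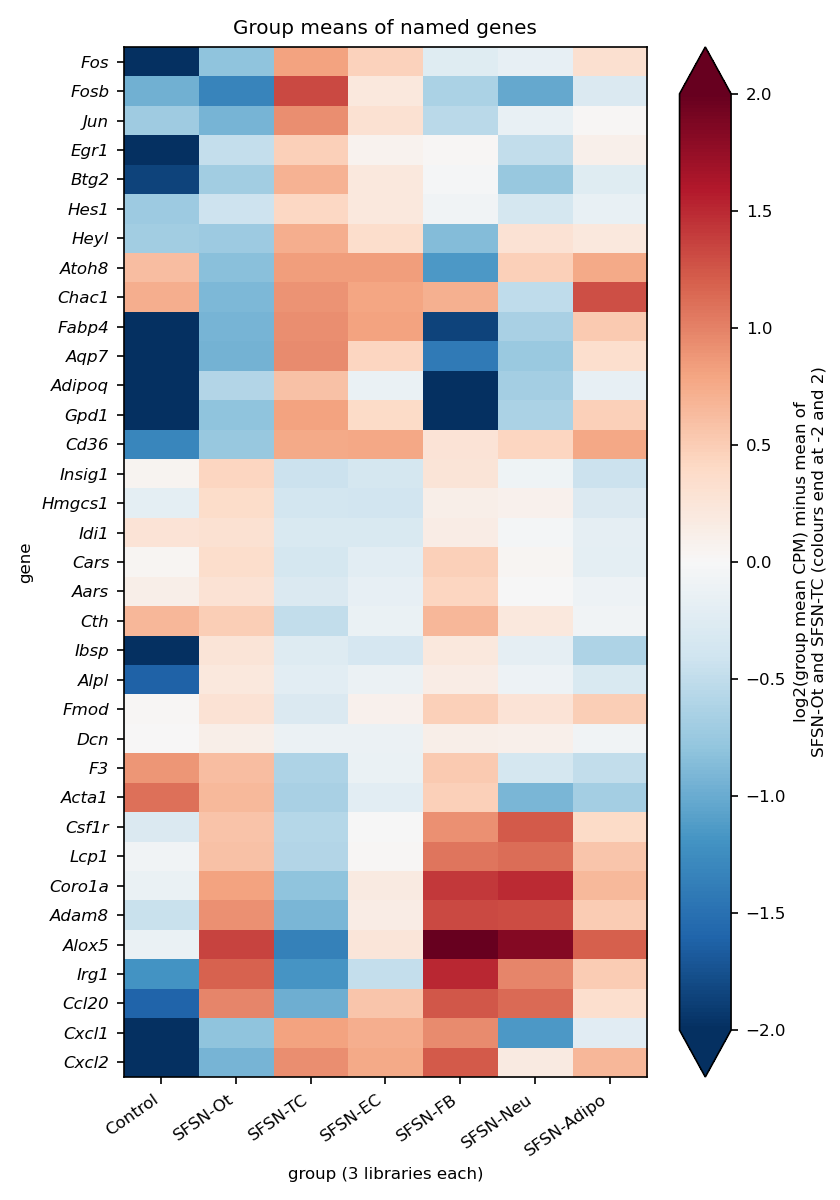
Rows are named genes, columns the 7 groups of 3 libraries, and colour the log2 of the group mean CPM minus the mean of the SFSN-Ot and SFSN-TC values (red higher, blue lower, colours ending at -2 and 2). Fos, Fosb and Jun are reddest in SFSN-TC, and Alox5, Coro1a and Adam8 are redder in SFSN-FB and SFSN-Neu than in SFSN-Ot.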

How the data were processed

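RNA was sequenced from 21 rat libraries in 7 groups of 3, and per the labels' protocols DNA and RNA were extracted from the same samples. Per the authors' deposited notes, reads were cleaned with SOAPnuke 2.2.1, aligned with HISAT2 2.2.1 and Bowtie2 2.4.5 (-k 200) and counted with RSEM 1.3.1. The submitters' processing notes name the Rnor 6.0 build and DESeq2 1.34.0, and no source used here gives the annotation release. The authors deposited expected counts, FPKM, TPM and a normalized count (a signal scaled between libraries) per gene. FPKM, the normalized count signal and the authors' group means were not used in a test.

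Expected counts, of which 84.4% of those above 0 were whole numbers, were rounded. The 21 libraries held 8113600 to 8934239 counts, and precision follows from these depths and from 3 libraries a group. edgeR 4.0.16 in R 4.3.3 (filterByExpr, TMM scaling, quasi-likelihood test, Benjamini-Hochberg adjustment over 6659 genes, threshold 0.05) was fitted to all 21 libraries, which share 1 estimate of spread. Each standard error (SE) was obtained from the log2 fold change and its F statistic, as their ratio after taking the root of F. The procedure was tested on simulated data. Alternatives used DESeq2 1.42.0, limma 3.58.1 on log2(TPM + 1) or log2(TPM + 0.1), other scalings, filters and library sets, and each of the 6 libraries left out.

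The comparison, the gene lists and their members were chosen with earlier results of these data known. Genes named are the 12 highest and 12 lowest fold changes at 10 CPM or more without overlap, every tested osteoblast and tendon gene, up to 6 called genes of each other list, up to 6 per direction with opposite calls against Control, and the markers in the library names. The other genes named (Fosl1, Dusp5, Klf10, Dusp6, Klf4, Junb, Jund, Ier2, Atf3, Ddit3, Asns, Ccl2, Ccl7, Ccl5, Cxcl13, Il1rn, Klf15, Cebpa, Lpl, Elmo1, LOC100364062 and genes given as not called outside the osteoblast and tendon lists) were chosen after their values were seen. Promoter sequences are from RefSeq, build GRCr8, matched by gene identifier and not by coordinates. Some genes are not reported here.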

Additional observations from a re-analysis of the deposited data

Results flagged for a closer look

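In 77 genes the direct comparison of SFSN-Ot with SFSN-TC was called in edgeR's quasi-likelihood test and the 2 groups were also called in opposite directions against the Control libraries they share. The 12 given here are, in each direction, the 6 that differed most among those whose higher group averaged 10 CPM or more. On the log2 scale, SFSN-Ot minus SFSN-TC, Alox5 differed by 2.69 (adjusted p = 1.01e-07) and Adam8 by 1.82 (adjusted p = 4.39e-11). Atoh8 differed by -1.67 (adjusted p = 1.36e-10), with values against Control of -1.45 in SFSN-Ot and 0.22 in SFSN-TC.

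Below these in size, Gfod2 differed by -1.15 (adjusted p = 2.66e-05), and Cdc7, a kinase that starts DNA replication, by -1.02 (adjusted p = 4.75e-06). Fbxl19, a CpG-binding F-box protein, differed by -0.99, Arhgap39 by -0.84 and Lrrc75a by -0.83. In each of these 5 genes the Control mean lay between the 2 groups, which follows from how they were chosen.

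The remaining 4 are gene models without a symbol in the table. LOC100360841 (Rpl37-ps5 in RefSeq) differed by 2.44 and LOC500959 (Tpi1l1) by 2.35. LOC100362830 (Rps7-ps23) differed by 2.26 and LOC100362432 (Timm23-ps8) by 2.18. Such models can share reads with the near-identical genes they are named for, so their values are uncertain.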

How the results depend on the processing

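All 20 alternatives gave between 991 and 1746 called genes, against 1350. The highest number came without SFSN-EC replicate 1 and SFSN-Neu replicate 2. These 2 libraries lie outside the comparison but enter the shared estimate of spread. Only limma on TPM moved a count by more than 1.5 times: the genes higher in SFSN-Ot, 685 by edgeR, numbered 366 on log2(TPM + 1), 357 on log2(TPM + 0.1) and 383 without a filter, and the cause was not tested. With the gene-length trend taken out, 947 genes were higher in SFSN-Ot and 756 in SFSN-TC. Leaving out 1 library gave 991 to 1111 called genes, 475 to 547 higher in SFSN-Ot and 495 to 564 higher in SFSN-TC. Same-numbered libraries of the groups had correlated deviations of 0.054, 0.091 and 0.032, against -0.08 to 0.029 for differently numbered ones. The same-numbered values were the highest but weak, so the numbers are not taken to pair the libraries. With the replicate number as a block 1230 genes were called in 21 libraries and 1279 in the 6. Of 185 called named genes 116 kept their call and direction under every alternative and 69 lost the call at least once, and 0 of 4361 values of named genes reversed a call. Leaving out SFSN-Ot replicate 3 ended 35 of these calls. At a few CPM, counting error limits what these depths can show.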

Other observations

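Gene models that RefSeq classes as pseudogenes were split unevenly between the directions. Of 103 tested, 17 (16.5%) were higher in SFSN-Ot and 3 (2.91%) were higher in SFSN-TC, whereas of 6050 protein-coding genes 648 were higher in SFSN-Ot and 633 in SFSN-TC. LOC100364062, called Pkm-ps20 in RefSeq and named after its value was seen, differed by a log2 fold change of 2.35 ± 0.24 (edgeR adjusted p = 1.58e-06), with mean levels of 30.1 CPM in SFSN-Ot and 5.92 CPM in SFSN-TC. Reads can be shared between a pseudogene and its parent gene, and their part in these values was not tested.

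Fold changes varied with gene length. With genes divided into 4 equal classes from the shortest to the longest, the median log2 fold change, SFSN-Ot minus SFSN-TC, was 0.074, 0.026, -0.011 and -0.05. Genes higher in SFSN-Ot numbered 132, 189, 200 and 154 in these classes, and genes higher in SFSN-TC 66, 153, 219 and 221.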
